A study of Mus musculus with 9 samples.

Results

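The transcript of Trp53, the gene of the transcription factor p53, and those of 9 of its target genes (Cdkn1a, Mdm2, Ccng1, Trp53inp1, Sesn1, Sesn2, Gadd45a, Btg2 and Perp) were followed across 9 arrays of mouse pro-B cells that carry a deletable gene for the B-lineage transcription factor EBF1, with or without retroviral EBF1. The members were found by name: every array probe annotated with one of these 10 genes, or with an older alias, was taken. This gave 19 probes printed as 46 spots, of 41174 probes and 43379 spots that were not controls. For 18 probes of 9 genes, some group had all 3 of its arrays well above background, which makes a gene measured here, as were 11937 genes in total. Perp was the member left out.

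RNA was read in 1 colour (Cy3) on Agilent arrays, 3 per group. All cells were A-MuLV (Abelson virus) transformed pro-B cells of the C57Bl/6 background with the genotype Ebf1fl/fl;RERTCre, a conditional Ebf1 allele and an inducible Cre, and all received 2 µM 4-hydroxytamoxifen. Mock cells were mock-transduced, got tamoxifen 24 h later and were harvested 4 days after tamoxifen, ahead of visible cell death. EBF1wt and EBF1ΔC cells carried the retroviral vectors pmys-EBF1wt-IRES-GFP and pmys-EBF1ΔC-IRES-GFP and also got tamoxifen 24 h after transduction. Their GFP+ cells were collected 5 days after that and cultured for more than 2 weeks before use. Neither the origin of replicates in separate cultures nor the number of clones in a group is labelled, so the p-values measure the spread between these samples, which may be technical. The Mock cells therefore model the first days after tamoxifen, and the other groups cells that grew on with retroviral EBF1. Every comparison with Mock also differs by time after tamoxifen, further culture, sorting, slide and scan day, which cannot be told apart from the group.

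p53 is held low by Mdm2, a ubiquitin ligase that p53 itself induces, and it accumulates after DNA damage, oncogene activity and other stress. It then acts on genes for cell-cycle arrest (Cdkn1a, Gadd45a, Btg2), feedback (Mdm2, Ccng1), autophagy and cell death (Trp53inp1, Perp) and control of oxidative and nutrient stress (Sesn1, Sesn2). Many of these genes have other inducers too, among them ATF4 of the integrated stress response and the FOXO factors. Abelson-transformed B-lineage lines often lose p53 or its activator p19Arf during transformation. The arrays measure transcripts, and neither p53 protein nor its activity was measured.

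Of the defining B-lineage markers, 9 of 9 were well above background on all 3 arrays of every group. Their summed linear signal, relative to the 75th percentile of the array, was 272.8 to 286 in Mock, 860.7 to 927 in EBF1wt and 870.9 to 908.8 in EBF1ΔC. The Ebf1 probe averaged 1.45 in Mock, 3.06 in EBF1wt and 3.80 in EBF1ΔC on the log2 scale used throughout, on which 0 is the 75th percentile of the array. It was well above background on all 3 Mock arrays, so it does not show loss of Ebf1 transcript there, and whether the probe lies in the deleted part was not tested. Vpreb1 (means of 5.12, 8.62 and 8.71 in Mock, EBF1wt and EBF1ΔC) and Igll1 (-0.57, 6.40 and 5.31) carried much of the rise in the B-lineage sum. Pax5 (-1.87, -1.62 and -1.79) and Blnk (6.87, 7.27 and 7.53) differed less. Summed erythroid markers were 422.9 to 483.9 in Mock, 3.46 to 6.25 in EBF1wt and 2.60 to 6.54 in EBF1ΔC. The globins Hbb-bt and Hbb-bh1 made up most of that signal. Hba-a1 and Epor were also well above background on all 3 Mock arrays, at means of -3.24 and -2.57, and on 0 EBF1wt arrays and 1 EBF1ΔC array each, while Alas2 did not clear background on any of the 9 arrays, and Klf1 and Gata1 did on 2 and 1. Summed myeloid markers were 2.83 to 3.26, 0.717 to 2.90 and 8.15 to 15.7 in the same order of groups. Lyz2 carried the EBF1ΔC sum, with means of -1.58, 0.49 and 3.59, while Tyrobp (1.15, -3.77 and -4.77) and Cd68 (-1.28, -3.17 and -2.52) had their highest means in Mock. T and NK markers did not exceed 0.510 and stromal markers did not exceed 0.415 on any array. The part of these other cell types in the differences given here was not tested. In bulk RNA, fewer cells of a type and less RNA per cell cannot be told apart.

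Promoter sequence was looked up because the members moved in different directions and the retroviral factor differed between the groups. RefSeq (GRCm38.p6) gave 10 windows of 250 bases upstream of a start site for 8 of the 10 genes; Trp53inp1 and Perp had none in the table used. On either strand, the p53 decamer motif matched in 6 of the 10 windows, against 7.13% of 32851 windows of the same length, and the EBF1 core CCCNNGGG matched in 3 of the 10, against 11.8%. A match describes letters and shows no binding. Most of these genes were listed as known p53 targets, so their larger share of p53 decamers is not a result of these arrays. Printed are the windows of the genes with the largest differences from Mock in each direction, taking for Cdkn1a and Sesn1 the start site whose window held matches. They are read 5′ to 3′ toward the start site, with motif matches in capitals.
Cdkn1a, chr17:29090729-29090978, plus strand: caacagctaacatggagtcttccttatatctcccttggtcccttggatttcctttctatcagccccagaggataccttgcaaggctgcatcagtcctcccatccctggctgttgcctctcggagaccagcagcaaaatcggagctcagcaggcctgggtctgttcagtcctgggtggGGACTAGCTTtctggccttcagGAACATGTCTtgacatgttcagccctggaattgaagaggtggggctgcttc
Gadd45a, chr6:67037408-67037657, minus strand: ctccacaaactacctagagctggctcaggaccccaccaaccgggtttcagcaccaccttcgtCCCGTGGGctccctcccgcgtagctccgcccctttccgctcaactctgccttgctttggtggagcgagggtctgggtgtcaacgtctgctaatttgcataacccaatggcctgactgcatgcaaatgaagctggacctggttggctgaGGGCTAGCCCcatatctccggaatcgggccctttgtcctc
Sesn1, second start site, chr10:41887189-41887438, plus strand: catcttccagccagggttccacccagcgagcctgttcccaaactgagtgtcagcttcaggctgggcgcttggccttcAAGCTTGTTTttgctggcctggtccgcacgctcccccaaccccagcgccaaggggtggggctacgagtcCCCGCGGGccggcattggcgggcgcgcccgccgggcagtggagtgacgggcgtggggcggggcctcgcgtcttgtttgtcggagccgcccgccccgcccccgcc
The Cdkn1a window held 2 p53 decamers, whose first bases lay at -73 and -51 from the start site, and no EBF1 core. The Gadd45a window held an EBF1 core at -188 and a p53 decamer at -40. In the Sesn1 window the p53 decamer lay at -173 and the EBF1 core at -104. Single p53 decamers were also found for Trp53 (-75), Mdm2 (-186) and Ccng1 (-185), an EBF1 core for Sesn2 (-56), and neither for Btg2, for the other start site of Cdkn1a or for that of Sesn1.

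In EBF1wt cells, 3 of the 9 measured genes rose against Mock and none fell at the threshold used, an adjusted p under 0.05 (limma, Benjamini-Hochberg over 11937 genes) with at least a 2-fold change. Those were Cdkn1a, Gadd45a and Trp53inp1. Over all genes, 19.1% passed this rule, 6.64% higher and 12.4% lower. The adjusted p alone was passed by 7 of the 9, against 66.4% of all genes, and for 7 of the 9 the 3 arrays of one group did not overlap those of the other, against 72.5%. By these last measures the members are near the background of all genes. The median difference was 0.52 over the 9 genes and 0.13 over all genes. Ccng1 entered with its brighter probe. Its other probe differed by -0.08, and with it the median of the 9 genes would be lower.

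In EBF1ΔC cells the count was the same, with 3 of 9 genes higher than in Mock and none lower, where 17.7% of all genes passed, 6.28% higher and 11.4% lower. The adjusted p alone was passed by 6 of the 9 (64.1% of all genes), and 6 did not overlap (71.6%). Under quantile normalization, with or without normexp background correction, and with the authors' values, 2 genes were called higher and 1 lower (Sesn1) in EBF1wt, and 3 higher and 1 lower (Sesn1) in EBF1ΔC. Under the scaling used here, the median difference over the 9 genes was 0.76, against 0.10 for all genes. That median is the value of Ccng1 by its brighter probe. The other Ccng1 probe differed by -0.18, and with it the median of the 9 genes would be lower. The EBF1wt and EBF1ΔC differences use the same 3 Mock arrays, so they are given side by side and not as 2 independent results. Between EBF1ΔC and EBF1wt, limma called 0 of the 9, where 2.76% of all genes were called (1.42% higher, 1.33% lower). An unadjusted p under 0.05 was reached by 5 and the adjusted p alone by 2 (Trp53inp1 and Btg2), against 9.26% of all genes, and 3 did not overlap (those and Sesn2), against 30.8%.

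**Figure D1:**
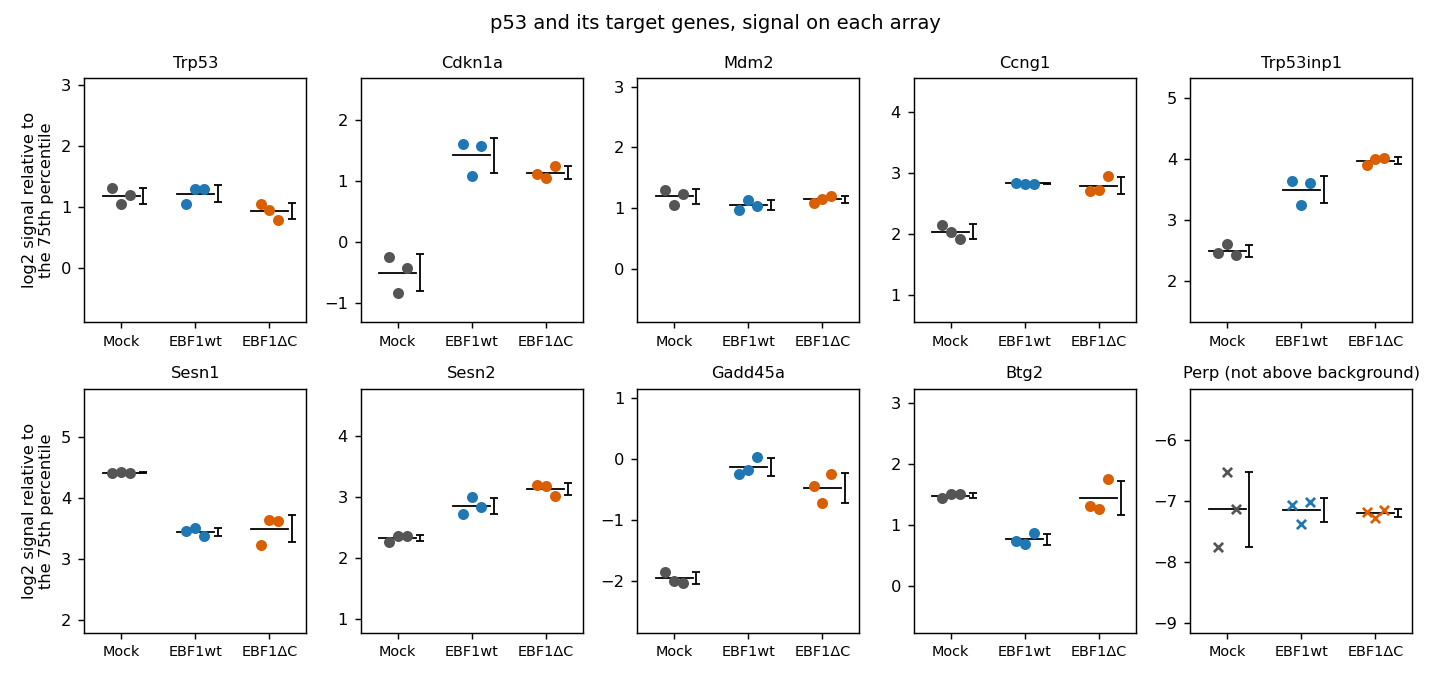
Log2 signal of each gene relative to the 75th percentile of its array (y axis), one point per array, for Mock, EBF1wt and EBF1ΔC. Horizontal lines are group means and bars beside them ± 1 SD over 3 arrays; panels share the length of the y axis but not its position, and crosses mark Perp, not well above background. Cdkn1a, Gadd45a and Trp53inp1 are higher in all 6 EBF1 arrays than in the 3 Mock arrays, and Sesn1 is lower.

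Trp53 itself was not called in any comparison. Its brighter probe (mm9, chromosome 11, 69403134 to 69403193), printed as 10 spots per array, read 1.31, 1.04 and 1.20 on the Mock arrays, 1.06, 1.30 and 1.29 on the EBF1wt arrays, and 1.06, 0.96 and 0.79 on the EBF1ΔC arrays. The EBF1wt values lay within the Mock range, and EBF1ΔC replicate 1 reached into it while the other EBF1ΔC arrays were lower. EBF1wt differed from Mock by 0.03 (SE 0.11, 95% interval -0.22 to 0.29, adjusted p = 0.803, limma). EBF1ΔC differed from Mock by -0.25 (adjusted p = 0.0776) and from EBF1wt by -0.28 (adjusted p = 0.155), with intervals of -0.50 to 0.004 and -0.53 to -0.03. A second Trp53 probe, farther 5′ in the gene (69393959 to 69394017), differed by -0.28 in EBF1wt, with an adjusted p of 0.021 over all probes, and by -0.11 in EBF1ΔC. The order of the 3 groups was thus not the same by both probes. A separate probe named for the pseudogene Trp53-ps, a near copy of the Trp53 mRNA, read -0.72 to -0.40 in Mock, -0.05 to 0.10 in EBF1wt and -0.34 to -0.22 in EBF1ΔC, so the groups did not overlap there. How far the 3 probes share target RNA was not tested.

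Mdm2, the ligase that degrades p53 and one of its most direct targets, stayed short of every threshold by its brighter probe (mm9, chromosome 10, 117126278 to 117126337). Mock arrays read 1.30, 1.06 and 1.24, EBF1wt arrays 0.98, 1.14 and 1.05, and EBF1ΔC arrays 1.09, 1.15 and 1.21. All 3 groups overlapped. The difference was -0.14 in EBF1wt (interval -0.34 to 0.06, adjusted p = 0.178) and -0.05 in EBF1ΔC (interval -0.25 to 0.15, adjusted p = 0.639), which leaves out a 2-fold change in either direction under this scaling. The other Mdm2 probe, printed as 10 spots, differed by -0.31 (adjusted p = 0.0371 over all probes) and -0.20.

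Cdkn1a encodes p21, the inhibitor of cyclin-dependent kinases that carries much of the p53 arrest. Its single probe (mm9, chromosome 17, 29237377 to 29237436; 10 spots per array) read -0.24, -0.84 and -0.43 in Mock, 1.60, 1.09 and 1.58 in EBF1wt, and 1.12, 1.04 and 1.25 in EBF1ΔC. All 6 EBF1 arrays lay above all 3 Mock arrays, by more than the spread within any group. Cdkn1a rose by 1.93 (SE 0.18, 3.81-fold, adjusted p = 4.19e-05) in EBF1wt and by 1.64 (3.12-fold, adjusted p = 0.000104) in EBF1ΔC. EBF1ΔC differed from EBF1wt by -0.29 (interval -0.70 to 0.13, adjusted p = 0.372), with overlapping arrays.

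Gadd45a is a small stress protein that binds PCNA and p21. Its probe (mm9, chromosome 6, 66985376 to 66985435) read -1.85, -1.996 and -2.03 in Mock, -0.25, -0.18 and 0.04 in EBF1wt, and -0.45, -0.73 and -0.24 in EBF1ΔC. The Mock arrays were below all others, and the EBF1 groups overlapped at a single pair of nearly equal arrays. The rise was 1.83 (SE 0.13, 3.55-fold, adjusted p = 1.10e-05) in EBF1wt and 1.49 (2.80-fold, adjusted p = 3.60e-05) in EBF1ΔC, and the difference between these was -0.34 (adjusted p = 0.156).

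Btg2, an antiproliferative protein of the BTG/TOB family, was the member with the widest gap between the EBF1 groups. The probe standing for it (mm9, chromosome 1, 135973916 to 135973975) read 1.44, 1.504 and 1.51 in Mock, 0.74, 0.68 and 0.86 in EBF1wt, and 1.32, 1.26 and 1.75 in EBF1ΔC. EBF1wt arrays were below all the others, and EBF1ΔC arrays fell on both sides of Mock. The difference from Mock was -0.72 in EBF1wt (adjusted p = 0.00131, short of 2-fold) and -0.04 in EBF1ΔC (adjusted p = 0.802). EBF1ΔC exceeded EBF1wt by 0.68 (SE 0.13, 1.60-fold, adjusted p = 0.0162), and by 0.56 and 0.58 at the other probes, whose adjusted p over all probes was 0.0521 and 0.0922. On the 2 slides that held both groups the gap was 1.07 and 0.45, and with slide as a fixed block it was 0.76 (adjusted p = 0.148). The slide of the wider gap held EBF1wt replicate 2 and EBF1ΔC replicate 3; without the latter the gap was 0.53 (adjusted p = 0.0131).

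Trp53inp1, a nuclear and autophagosomal protein that p53 induces and that promotes autophagy and cell death, was stepped across the groups. Its probe (mm9, chromosome 4, 11101174 to 11101233) read 2.45, 2.60 and 2.42 in Mock, 3.63, 3.24 and 3.61 in EBF1wt, and 3.90, 3.99 and 4.02 in EBF1ΔC. No group overlapped another. The rise was 1.48 (2.79-fold, adjusted p = 1.55e-05) in EBF1ΔC and 1.00 (SE 0.11, 2.01-fold, adjusted p = 0.00011) in EBF1wt, and the second probe gave 1.44 and 1.05. The EBF1wt call sits at the 2-fold limit: it ended under quantile normalization with and without normexp background correction (0.79 and 0.80), with the authors' values (0.80) and when any of Mock replicate 1, Mock replicate 3, EBF1wt replicate 1 or EBF1wt replicate 3 was left out (0.98, 0.97, 0.94 and 0.95). EBF1ΔC exceeded EBF1wt by 0.48 (SE 0.11, adjusted p = 0.0356), and by 0.77 and 0.30 within slides. With slide as a fixed block that adjusted p was 0.207, and with single arrays left out it ran from 0.042 to 0.105. Adjusted over all probes (limma), it was 0.0531, and the second probe differed by 0.40 (adjusted p = 0.0599).

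Perp, a membrane protein of the p53 death programme, was not well above background on any of the 9 arrays (mm9, chromosome 10, 18576697 to 18576756). Its values of -7.76 to -6.53 lay under the lowest signal well above background, which was between -5.78 and -5.18 depending on the array. No difference is given for it.

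Ccng1, cyclin G1, recruits a phosphatase to Mdm2 and is among the most regular p53 targets. The brighter probe (mm9, chromosome 11, 40562427 to 40562486) read 2.16, 2.04 and 1.91 in Mock, 2.85, 2.83 and 2.83 in EBF1wt, and 2.71, 2.73 and 2.95 in EBF1ΔC. Mock was lowest and the EBF1 groups overlapped. The differences from Mock were 0.80 (SE 0.09, 1.74-fold, adjusted p = 0.000135) and 0.76 (1.69-fold, adjusted p = 0.000187), below the 2-fold limit. The other Ccng1 probe (40564413 to 40564472) did not follow: it differed by -0.08 (adjusted p = 0.417 over all probes) in EBF1wt and by -0.18 (adjusted p = 0.0918) in EBF1ΔC. The mean of both probes differed by 0.36 and 0.29, so the result for this gene rests on which probe is read.

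The sestrins, stress-induced inhibitors of mTORC1 with antioxidant function, went opposite ways. Sesn1, by its brightest probe (mm9, chromosome 10, 41628000 to 41628059), read 4.41, 4.43 and 4.42 in Mock, 3.46, 3.51 and 3.38 in EBF1wt, and 3.24, 3.65 and 3.62 in EBF1ΔC. The Mock arrays were highest and nearly identical. The difference was -0.97 (SE 0.11, adjusted p = 0.000122) in EBF1wt and -0.92 (adjusted p = 0.000172) in EBF1ΔC, 1.95-fold and 1.89-fold lower and so just short of the call. The other 2 Sesn1 probes gave -0.63 and -0.62 in EBF1wt and -0.57 and -0.54 in EBF1ΔC. Under quantile normalization and with the authors' values the brightest probe passed 2-fold (-1.18 and -1.11 in EBF1wt, -1.12 and -1.06 in EBF1ΔC), and under scaling to the median of each array the difference was -0.26 (adjusted p = 0.189) and -0.37 (adjusted p = 0.0757).

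Sesn2 (mm9, chromosome 4, 132047974 to 132048033) read 2.27, 2.36 and 2.37 in Mock, 2.73, 3.002 and 2.84 in EBF1wt, and 3.21, 3.18 and 3.02 in EBF1ΔC. No groups overlapped, with EBF1ΔC highest. It was higher by 0.52 (1.44-fold, adjusted p = 0.00114) in EBF1wt and by 0.80 (1.74-fold, adjusted p = 0.000125) in EBF1ΔC, both short of 2-fold, and the second probe gave 0.63 and 0.80. Between the EBF1 groups the difference was 0.28 (interval 0.07 to 0.49, adjusted p = 0.0992), and 0.02 and 0.36 within slides.

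**Figure D2:**
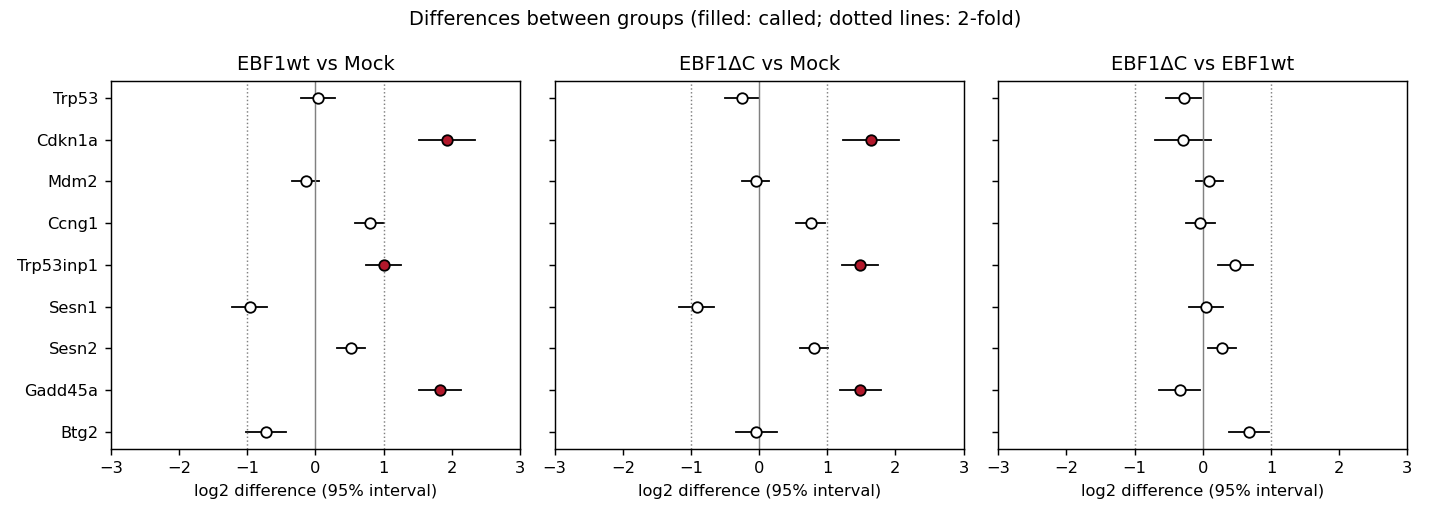
Log2 difference of each measured gene (x axis) in the 3 comparisons, with 95% intervals from the fit; filled points were called and dotted lines mark 2-fold. The points called are Cdkn1a, Gadd45a and Trp53inp1 against Mock in both EBF1 groups, and no point is called between EBF1ΔC and EBF1wt.

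Scaling bears on all differences from Mock. Dividing by the median of each array in place of the 75th percentile moved the median difference of all genes to 0.83 in EBF1wt and 0.65 in EBF1ΔC, and turned the calls over all genes from 793 higher and 1485 lower to 4584 and 755 in EBF1wt, and from 750 and 1365 to 3071 and 812 in EBF1ΔC. Under it Ccng1 and Sesn2 also passed the call (1.5 and 1.23 in EBF1wt, 1.30 and 1.35 in EBF1ΔC), Mdm2 became 0.56 and 0.50, Trp53 became 0.74 in EBF1wt and 0.30 in EBF1ΔC, and Btg2 became -0.02 and 0.51. Both scalings shift each array by a constant, so they leave the differences between genes as they are. Measured against the median of all genes, Cdkn1a was higher in EBF1wt by 1.80, and by 1.62 with the authors' values.

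**Figure D3:**
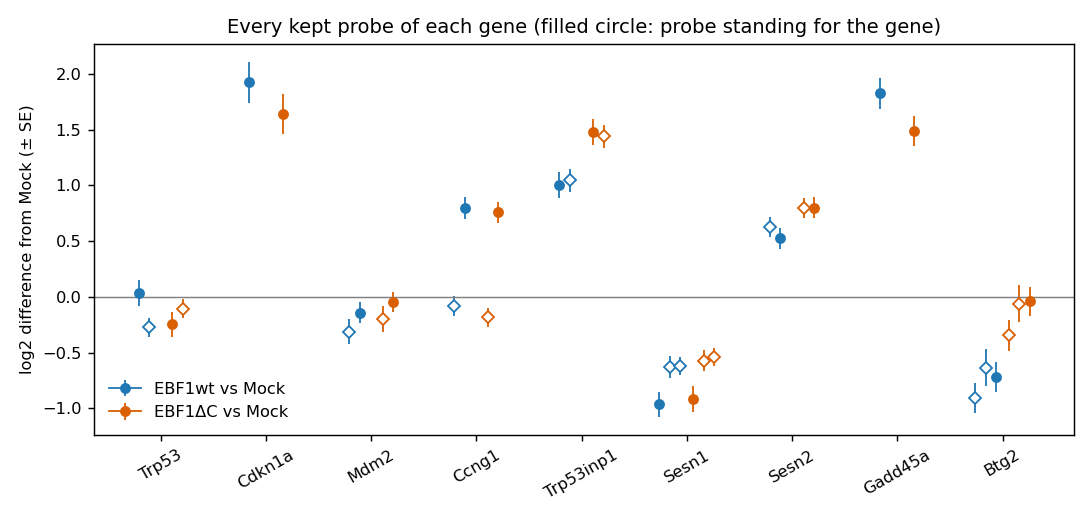
Log2 difference from Mock (y axis, ± SE of the fit) for all 18 measured probes of the 9 genes, EBF1wt in blue and EBF1ΔC in orange. Filled circles are the probes standing for the genes and open diamonds the others; the probes of Ccng1 lie farthest apart, at 0.80 and -0.08 in EBF1wt, and those of Sesn1 (-0.97 to -0.62) and Trp53 (0.03 and -0.28) also differ.

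Other genes of the pathway were taken from lists. Of 16 genes listed here as further p53 targets of apoptosis and survival, 13 were measured. In EBF1wt 2 rose and 1 fell (median 0.33), where 19.1% of all genes were called. Whether p53 acts on the listed genes in these cells was not tested. Bcl2l1, which encodes the survival protein Bcl-xL, rose by 1.74 (SE 0.13, adjusted p = 1.08e-05), and in EBF1ΔC, where it was the gene called of this list, by 1.65 (median 0.28; 17.7% of all genes called). Steap3, a metalloreductase, rose by 1.31 in EBF1wt. Fas, a death receptor, fell at least 1.92-fold there under the scaling used here, as none of the EBF1wt arrays was well above background. Over 5 scalings and background corrections, the one used here among them, Bcl2l1 was called under all 5, Steap3 under 3 and Fas under 1. These 5 are not independent, as the authors' values correlated at r = 0.999 with quantile-normalized normexp signal. The difference of Fas ranged from -1.16 to -0.07 over these 5, so that bound does not hold under the others. None of the 13 was called between EBF1ΔC and EBF1wt (limma; unadjusted p under 0.05 for 4), where Steap3 was lower in EBF1ΔC by value, at -0.81 (adjusted p = 0.0198).

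Of 20 further targets in DNA repair, metabolism and the cell cycle, 18 were measured, with 3 higher and 2 lower in EBF1wt (median 0.09), 2 higher and 2 lower in EBF1ΔC (median -0.09), and 2 higher in EBF1ΔC than in EBF1wt (median -0.12), against 19.1%, 17.7% and 2.76% of all genes called in either direction. Rrm2b, the p53-inducible subunit of ribonucleotide reductase, rose by 1.64 (adjusted p = 1.13e-05) and 1.95 (adjusted p = 4.94e-06), the former a call under 3 of the 5 scalings and corrections. Pltp, a phospholipid transfer protein, fell by 4.59 in EBF1wt, where 1 outlier-marked array left 2 values, and by 3.51 in EBF1ΔC. Ccnd1, cyclin D1, fell by 1.71 in EBF1wt and was 1.31 higher in EBF1ΔC than in EBF1wt (adjusted p = 0.00489), both under 3 of 5. Pltp also differed between the EBF1 groups, by 1.07, but this ranged down to -0.12 under other scalings and background corrections. Ak1, an adenylate kinase, was called lower in EBF1ΔC (adjusted p = 0.0377) with 1 of 3 EBF1ΔC arrays well above background, a call that none of the other 4 scalings and corrections gave.

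Paralogs of the members were measured for 11 of 13 genes, and 3 fell and none rose in each EBF1 group (median -0.65 in EBF1wt and -0.16 in EBF1ΔC, which scaling to the median turned to 0.06 and 0.39). Of all genes, 12.4% and 11.4% were called lower. The 3 fell under all 5 scalings and corrections, while quantile normalization and scaling to the median each added 1 higher call per group. Those settings called 963 and 4584 of all 11937 genes higher in EBF1wt, and 933 and 3071 in EBF1ΔC. Gadd45g, a relative of Gadd45a, fell from 6.13 ± 0.11 in Mock to 1.30 ± 0.07 in EBF1wt and 1.56 ± 0.07 in EBF1ΔC (SD, n = 3), while Gadd45a rose. It fell by 4.83 (adjusted p = 7.93e-09) in EBF1wt and fell by 4.57 (adjusted p = 1.19e-08) in EBF1ΔC. Trp53inp2, a relative of Trp53inp1, fell by 2.55 (adjusted p = 5.86e-06) and 1.61 (adjusted p = 7.26e-05), while Trp53inp1 rose. Btg1, like Btg2 an antiproliferative protein, fell by 2.38 (adjusted p = 8.45e-07) and 1.70 (adjusted p = 6.02e-06). Between the EBF1 groups none of the 11 was called (limma; unadjusted p under 0.05 for 4), and Trp53inp2 was 0.94 higher in EBF1ΔC (adjusted p = 0.0121).

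Regulators of p53, such as its acetylases, damage kinases and ubiquitin ligases, showed no call in 19 measured of 20 in any comparison. An unadjusted p under 0.05 (limma) was reached by 12, 13 and 4 for EBF1wt and EBF1ΔC against Mock and EBF1ΔC against EBF1wt. Over all genes, 19.1%, 17.7% and 2.76% were called. The list medians were 0.15, 0.05 and -0.02, and those of all genes 0.13, 0.10 and -0.01. By the adjusted p alone, 8 were higher and 3 lower in EBF1wt, and 8 higher and 4 lower in EBF1ΔC. That limit was passed by 66.4% and 64.1% of all genes. The coactivator Crebbp had the largest value against Mock, 0.77 and 0.80. Cdkn2a, the locus of p19Arf and p16, had the largest between EBF1ΔC and EBF1wt, 0.76 (adjusted p = 0.0683). Scaling to the median gave 8, 6 and 0 higher calls in this list, and 4584, 3071 and 141 over all 11937 genes.

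Proliferation genes that p21 represses through the DREAM complex were set beside Cdkn1a. None of the 20 passed the call against Mock or between the EBF1 groups (limma, unadjusted p under 0.05 for 17, 19 and 2). The shares called over all genes were 19.1%, 17.7% and 2.76%. Their medians were 0.58 in EBF1wt and 0.56 in EBF1ΔC, with 16 and 17 of 20 higher by the adjusted p alone, against 39.8% and 37.8% of all genes. Ccna2, cyclin A2, had the largest difference from Mock, 0.92 (adjusted p = 0.000624) and 0.87 (adjusted p = 0.000914). Cdkn1a and most of these genes were thus higher in the same groups. Under scaling to the median, 15 and 13 of the 20 were called higher, as were 4584 and 3071 of all 11937 genes. Between the EBF1 groups the largest was E2f1, at 0.37 (adjusted p = 0.212).

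Targets of ATF4, the transcription factor of the integrated stress response that also induces Sesn2, were measured for 13 of 14 genes, with 5 higher and 1 lower in EBF1wt (median 0.90) and 6 higher and none lower in EBF1ΔC (median 0.86). Of all genes, 6.64% were called higher and 12.4% lower in EBF1wt, and 6.28% and 11.4% in EBF1ΔC. Trib3, a pseudokinase induced by ATF4, rose by 3.32 (adjusted p = 9.94e-08) and 2.98 (adjusted p = 2.45e-07). Nupr1, a stress-induced chromatin protein, rose by 1.24 in EBF1wt and by 1.11 in EBF1ΔC. Slc3a2, an amino acid transporter subunit, rose by 1.16 in each of these groups. Atf3, a transcription factor, rose by 1.27 in EBF1ΔC and was 0.58 higher in EBF1wt, short of the call. The lower call was Vldlr, a lipoprotein receptor (adjusted p = 0.0216), of which 1 of 3 EBF1wt arrays was well above background, so that the size of its fall was not measured. Of these calls, that of Trib3 held in both groups and that of Atf3 in EBF1ΔC under all 5 scalings and corrections. The higher calls of the list ranged from 1 to 11 in EBF1wt and from 2 to 11 in EBF1ΔC. Over all 11937 genes, higher calls ranged from 392 to 4584 and from 393 to 3071 under the same 5. None of the 13 listed genes was called between the EBF1 groups (limma, unadjusted p under 0.05 for 3). Vldlr had the largest value there, 0.75 (adjusted p = 0.339), but was dim in EBF1wt. Atf3, well above background on all 9 arrays and named here after its value was seen, was 0.69 higher in EBF1ΔC (adjusted p = 0.00511), short of 2-fold.

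FOXO factors and their targets, measured for 6 of 9 genes, had 1 higher and 1 lower in each EBF1 group (medians 0.09 and 0.37), where 19.1% and 17.7% of all genes were called. Foxo1 rose by 1.37 (adjusted p = 4.37e-06) and 1.42 (adjusted p = 3.92e-06). Cited2, a CBP-binding transcriptional regulator, fell by 1.40, a call under 4 of the 5 scalings and corrections, and 1.72. None of the 6 was called between the EBF1 groups (limma; unadjusted p under 0.05 for 3; median 0.18), where Txnip, a thioredoxin-binding protein, had the largest value, 0.46 (adjusted p = 0.118).

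**Figure D4:**
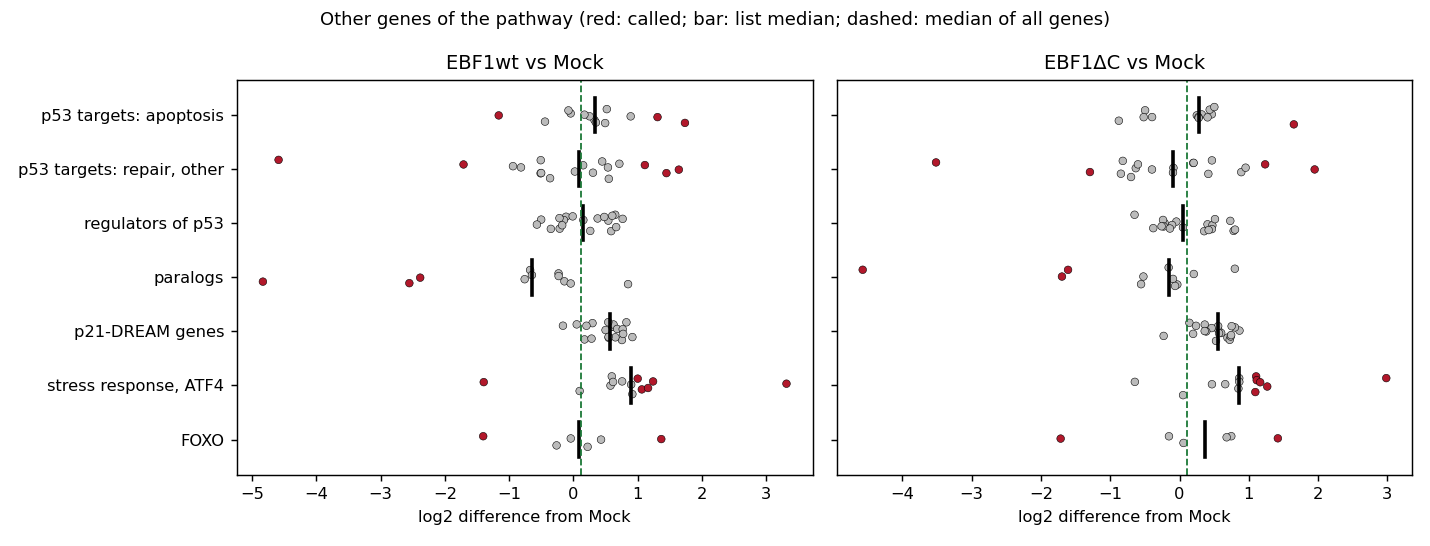
Log2 difference from Mock (x axis) for each measured gene of the 7 lists in EBF1wt (left) and EBF1ΔC (right). Red points were called, black bars are list medians and the dashed line is the median of all genes, 0.13 and 0.10; the 3 called paralogs lie on the negative side in both panels.

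Profiles across the 9 arrays were compared with those of 11936 other genes, each centred on its own mean, by Euclidean distance in log2 units. The genes nearest to Trp53 were Zc3h10 (0.208), Pkm (0.216) and Dcaf5 (0.221), and those nearest to Cdkn1a were Bcl2l1 (0.431), Gas2l1 (0.453) and Cdc42ep3 (0.492). Bcl2l1, which is on a list of p53 targets used here, had group means of 0.13, 1.86 and 1.78 in Mock, EBF1wt and EBF1ΔC. Gas2l1 (-2.04, -0.23 and -0.48) and Cdc42ep3 (0.27, 2.01 and 1.88) are on none of the lists. Whether these genes share a regulator with Cdkn1a was not tested.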

How the data were processed

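RNA of 9 samples (3 Mock, 3 EBF1wt, 3 EBF1ΔC, grouped by title) was hybridised to 9 arrays. The deposited files hold spot intensity from Agilent Feature Extraction, version 10.5.1.1 per the file headers and 9.1 per the submitters' processing notes, background-subtracted and not normalized between arrays. The authors also deposited log2 values with unstated scale, whose columns had medians of 6.74 and correlated at r = 0.999 with quantile-normalized normexp signal across probes, and these served as an alternative. Here log2 of the processed intensity was taken minus the 75th percentile of the array (384 to 507.7 intensity units), without outlier-marked spots (73 to 163 per array). Spots of a probe were averaged. On each array 50.8% to 56.9% of probes cleared background, and the number of arrays limits the precision. A probe was kept if well above background on all 3 arrays of a group, and the brightest kept probe stood for a gene. Probes were named from RefSeq by accession (27484), symbol (5476) or synonym (676), or by the file (869), and 6669 had no name and stayed out of gene counts.

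All 9 arrays entered 1 limma fit (limma 3.58.1, R 4.3.3, statmod 1.5.0) with a mean per group and 6 residual degrees of freedom, tested on simulated data. Lower bounds set the dim group to the lowest signal well above background on each array. Members, lists and alternatives were chosen with earlier results of these data known. All 10 members are named. From each list and comparison up to 3 called genes with the largest change are named, or the largest value where none was called; some list genes are left out and not reported here. Alternatives were other background corrections and scalings, the authors' values, other filters, probe means, slide or replicate blocks, array weights, other moderation, other thresholds, 2-group fits and leaving out each array. Computing the lists under the other scalings was added after seeing the data. The files give probe positions in mm9, and RefSeq gives promoter windows in GRCm38.p6. Tamoxifen is missing from the source name of EBF1wt replicate 3 but stands in its description.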

Additional observations from a re-analysis of the deposited data

How the results depend on the processing

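The count of members called, 3 against Mock for EBF1wt, 3 for EBF1ΔC and 0 between EBF1ΔC and EBF1wt, was 5, 5 and 0 under scaling to the median, 7, 6 and 2 by the adjusted p with no fold limit, and 6, 6 and 1 at a 1.5-fold limit. Leaving out single arrays gave 2 to 3, 3 to 3 and 0 to 0. With the replicate number as a block (replicate block) the counts were 3, 3 and 0. Same-numbered arrays showed little shared deviation (correlations of -0.180 to 0.114 across genes). Whether the numbers pair samples is not labelled, and 3 arrays per group cannot settle it. Over single genes, 12 values became calls and 7 stopped being calls for EBF1wt against Mock. For EBF1ΔC against Mock 11 became calls, and between the EBF1 groups 3. Those 3, and part of the new calls against Mock, came from dropping the fold limit or lowering it to 1.5-fold. These settings keep the same fit, so they could only add calls. No called value changed sign. In the same order of comparisons, 188, 196 and 213 values stayed called or stayed uncalled, and uncalled values among them could change sign. Over all genes, the counts of calls (2278, 2115 and 329) were 5339, 3883 and 366 under scaling to the median, 1028, 1036 and 129 under normexp with quantile normalization, 1005, 1010 and 125 with the authors' values, 7931, 7656 and 1105 with no fold limit, and 4539, 4268 and 642 at 1.5-fold. Between EBF1ΔC and EBF1wt they were 151 with slide as a fixed block and 208 in a fit of these groups alone. Quantile normalization split the EBF1wt calls into 963 higher and 1127 lower. Slide as a fixed block could not be fitted against Mock, which shares no slide with another group. Apart from the changed fold limits, the cause of these shifts was not tested.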
